A study of Homo sapiens with 36 samples.

Results

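The comparison described here was between RNA crosslinked to FLAG-tagged SCAF4 and RNA recovered by the same anti-FLAG immunoprecipitation (IP) from cells without a FLAG-tagged protein. It covered 12 of the 36 samples of the series, deposited as 6 lists of RNA-binding clusters, 3 for FLAG-SCAF4 and 3 for the control, and each list pooled the soluble and the chromatin sample of 1 replicate number. The series as a whole held 18 such lists, the others being FLAG-SCAF8 IPs and inputs. Both groups came from Flp-In T-REx HEK293 cells, an established human embryonic kidney line. The SCAF4 group carried a doxycycline-inducible FLAG-SCAF4 transgene on top of endogenous SCAF4, and the labels gave 100 ng/mL doxycycline overnight for it. The control group was the parental line, for which the labels gave no doxycycline, whereas the study's methods describe doxycycline for the parental cells as well, and a higher dose for all lines. Cells of both groups received 100 µM 4-thiouridine overnight and 500 µM for a further 2 h, and were irradiated at 365 nm with 2000 J/m2. Both groups kept untagged SCAF4 and SCAF8. The lists hold genomic intervals and no expression values, so the labelled cell type could not be checked against marker genes.

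SCAF4 is an RNA-binding protein with a domain that recognises the phosphorylated C-terminal domain (CTD) of the largest subunit of RNA polymerase II, and it is known, together with its paralog SCAF8, for preventing early cleavage and polyadenylation of transcripts. In PAR-CLIP, a crosslinking and immunoprecipitation method, cells incorporate 4-thiouridine into new RNA, and irradiation links a bound protein to that RNA. Crosslinked uridines are read as T-to-C changes, and reads that carry them are grouped into clusters. A FLAG IP from cells without the tag shows which RNAs are recovered without the tagged protein.

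Clusters of the 6 lists that shared 1 nt or more on a strand were joined into regions. A region counted as found with SCAF4 and not control where at least 2 of the 3 SCAF4 lists and none of the control lists held a cluster, and as common where at least 2 SCAF4 lists and at least 1 control list did. Of 61887 merged regions, 21734 were found with SCAF4 and not control, 7706 were common, and 14 were found in at least 2 control lists and in no SCAF4 list. Genes were assigned from cluster midpoints in the GENCODE 44 annotation with 2000 nt on either side.

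Sequences of 100 nt around the region midpoint are shown for genes that held the most regions of each class, to show what such a stretch of RNA looks like. All are on GRCh38 and are written in the direction of transcription, with the motif CAG flanked by C or G on either side in capitals. The UBR4 stretch (chr1:19161660-19161759, minus strand) held 77 nt of coding exon 37 of 106 and a splice site. Its region had clusters in all 3 SCAF4 lists and in 0 control lists. The SLC7A1 stretch (chr13:29529583-29529682, minus strand) was intronic, again with 3 SCAF4 lists and 0 control lists. The DAZAP1 stretch (chr19:1416379-1416478, plus strand) lay in the first intron, and its region had clusters in all 3 lists of both groups. The stretch of the long noncoding RNA gene ENSG00000267053 (chr19:36302193-36302292, plus strand) had its midpoint within the gene but outside the isoform used. Its region had clusters in 2 SCAF4 and 2 control lists.
UBR4: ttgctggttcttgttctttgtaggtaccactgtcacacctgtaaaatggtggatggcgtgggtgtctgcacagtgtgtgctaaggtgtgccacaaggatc
SLC7A1: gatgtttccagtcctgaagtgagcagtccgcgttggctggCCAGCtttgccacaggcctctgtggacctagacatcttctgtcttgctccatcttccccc
DAZAP1: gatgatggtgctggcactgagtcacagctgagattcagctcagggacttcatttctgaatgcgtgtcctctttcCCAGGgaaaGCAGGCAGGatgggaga
ENSG00000267053: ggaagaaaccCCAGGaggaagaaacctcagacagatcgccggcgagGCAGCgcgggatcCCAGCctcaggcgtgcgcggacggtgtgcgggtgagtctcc

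The SCAF4 IPs gave far longer lists than the control IPs. They held 18991, 54404 and 33962 clusters in replicates 1, 2 and 3, against 9638, 2314 and 1621 in the control. All 3 SCAF4 lists were longer than each control list (exact permutation test of the log2 numbers, two-sided p = 0.1, the smallest that 3 against 3 lists allow). The gap was 1.97-fold in replicate 1, 23.5-fold in replicate 2 and 21-fold in replicate 3. Control replicate 1 carried most of what the control contributed, and 93.1% of the common regions overlapped it. Without that list, 2619 regions and 1608 genes would have been common, and 26821 regions and 6493 genes would have been found with SCAF4 and not control, a setting chosen after the data were seen. The lists give no read numbers, so the depth is unknown, and a region missing from a short control list because it was not bound and one missing because it was sampled too lightly cannot be told apart.

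Most clusters of each control list overlapped the SCAF4 list of the same number, less so in replicate 1, where 3034 of 9638 did not. Of the control clusters, 68.5%, 97.4% and 96.2% overlapped SCAF4 clusters of replicates 1, 2 and 3. Of the SCAF4 clusters, 34.7%, 3.96% and 4.35% overlapped control clusters of the same number. As shares of the control lists the 3 pairs averaged 87.4% ± 16.3 (SD, n = 3 pairs), and as shares of the SCAF4 lists 14.3% ± 17.6. Whether lists with the same number shared more than lists with different numbers could not be told with 3 pairs (exact sign-flip permutation test, p = 1, smallest possible 0.25). With every list shortened to its 1621 highest-scoring clusters, the share of control clusters overlapping SCAF4 clusters fell to 17.2%, 7.65% and 9.69%, so the near-complete overlap held for the full lists and not for lists of 1 length.

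**Figure D1:**
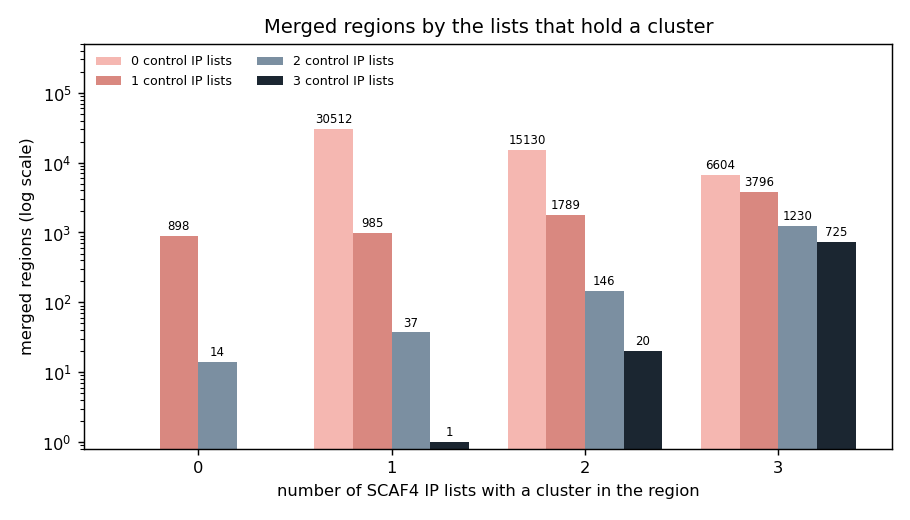
Number of merged regions (vertical axis, log scale) by how many of the 3 SCAF4 IP lists (horizontal axis) and of the 3 control IP lists (colours) held a cluster; numbers stand above the bars. Regions of all 3 SCAF4 lists and no control list numbered 6604, and regions of all 6 lists numbered 725.

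Recurrence within the SCAF4 lists separated the 2 classes. Of the regions without a control cluster, 30.4% (6604) were in all 3 SCAF4 lists, and of the common regions 74.6% (5751) were. Among the common regions, 5585 rested on 1 control list, 1376 on 2 and 745 on all 3. In 5087 the only control cluster came from replicate 1. The plot of regions by list number shows the same steep fall from 1 control list to 3.

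At the level of genes the split was closer to even. Of the genes with clusters in at least 2 SCAF4 lists, 4225 had no cluster in any control list and 3876 had one in at least 1. The former were 52.2% of these genes. The control genes were nearly all SCAF4 genes too, with 88.6%, 98.9% and 98.9% of the control genes of replicates 1, 2 and 3 found in the SCAF4 list of the same number. Genes of both classes had a median of 9 exons, with a median length of 31.8 kb without and 30.5 kb with a control cluster. They differed in the number of SCAF4 clusters, with medians of 5 and 13 over the 3 lists. OPA3, ATP6AP2 and RN7SKP55 were the 3 genes with clusters in 2 control lists and in no SCAF4 list, a set named after its values were seen.

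Regions of both kinds often lay in the same gene. Of the 3477 genes with a common region, 2595 (74.6%) also held a region without control clusters, and these were 38.9% of the 6676 genes with such a region. A single region without control clusters was found in 2786 genes, at least 10 in 375 genes and at least 20 in 54 genes.

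Several of the genes with most SCAF4 regions lacking control clusters encode very large proteins in many exons. UBR4, a giant E3 ubiquitin ligase, led with 60 such regions against 8 common ones. Its SCAF4 lists held 21, 97 and 74 clusters and its control lists 7, 1 and 1, but relative to list length limma called no difference for it (log2 difference 0.98, SE 0.33, adjusted p = 0.0624). These regions touched 57 of its 106 exons, and 50 of the 60 spanned a splice site. PRKDC, the catalytic subunit of DNA-dependent protein kinase, followed with 49 regions, from 38, 95 and 76 clusters against 18, 1 and 3. POLE, the catalytic subunit of DNA polymerase epsilon, had 37, from 34, 76 and 54 clusters against 12, 1 and 6. Exonic regions prevailed in these genes, with 32 of 49 in coding exons of PRKDC and 22 of 37 in those of POLE.

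Exonic regions also prevailed in DYNC1H1, the heavy chain of cytoplasmic dynein, where 33 of 36 regions lay in coding exons and 29 spanned a splice site. Its SCAF4 lists held 20, 59 and 45 clusters and its control lists 4, 1 and 0. TRRAP, a scaffold of histone acetyltransferase complexes, had 36 such regions, GCN1, a ribosome-associated regulator of the response to amino acid shortage, had 35, and MDN1, an AAA ATPase of ribosome biogenesis, had 35. In MDN1, 33 of the 35 were in coding exons and 0 in introns. Raw numbers follow list length, and the genes were ranked by regions without control clusters, so a higher number in every SCAF4 list is no finding here. Per 1000 clusters of the list, the values of both groups overlapped in PRKDC, POLE and MDN1 and did not in UBR4, DYNC1H1, TRRAP and GCN1. The same ranking bears on these values, which rest on few control clusters, so a lack of overlap is no finding either.

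A pair of amino acid transporters and a noncoding gene departed from the exonic pattern. In SLC7A1, a cationic amino acid transporter, 31 of 39 regions without control clusters were intronic and 8 spanned a splice site. In SLC38A1, a neutral amino acid transporter, 29 of 36 were intronic. SLC7A1 had 23, 89 and 64 SCAF4 clusters against 12, 0 and 1, and SLC38A1 13, 72 and 45 against 9, 0 and 2. ENSG00000267053 had 39 such regions and 24 common ones, but its SCAF4 lists disagreed, with 1, 103 and 76 clusters, and so did the control lists with 31, 0 and 7. Control replicate 1 thus exceeded SCAF4 replicate 1 in that gene, and 0 of its 39 regions were in all 3 SCAF4 lists.

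Genes with no control cluster at all had fewer SCAF4 clusters. Those with most were PDCD11, a ribosomal RNA processing factor, with 7, 27 and 23 clusters, and PHRF1, a PHD and RING finger protein, with 8, 28 and 20. NAT10, an RNA cytidine acetyltransferase, followed with 2, 30 and 19, and RNF40, a ubiquitin ligase of histone H2B, with 7, 22 and 16. Their control lists all held 0, and the genes were picked after their values were seen. XRCC3, a factor of homologous recombination, had 5, 26 and 12 against 0 in each control list.

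The genes with most common regions included DAZAP1 and HNRNPU, both for RNA-binding proteins. DAZAP1, an RNA-binding protein, had 25 common regions, of which 23 were intronic, from 24, 61 and 58 SCAF4 clusters against 26, 7 and 13 in the control. SMC1A, a cohesin subunit, had 20, of which 12 were in coding exons and 8 in the 3′ UTR. HNRNPU, a nuclear RNA-binding protein, had 18. HNRNPU gave 26, 40 and 31 clusters against 24, 5 and 5, so that SCAF4 replicate 1 was barely above control replicate 1. PRKDC stood in both rankings, with 19 common regions beside its 49 others.

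Common regions in repeated sequence need care, because reads of near-identical copies cannot be assigned with certainty. NPIPB5, of a multicopy family on chromosome 16, had 22 common regions from 39, 45 and 38 SCAF4 and 30, 4 and 2 control clusters. ENSG00000280441, a noncoding gene among the ribosomal DNA copies of chromosome 21, had 22 as well, from 31, 49 and 39 against 37, 31 and 27. The numbers of the 2 groups overlapped there. In ANKRD11, a chromatin regulator, 18 common regions and 33 without control clusters were found, and 26 of the latter lay in its first intron.

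**Figure D2:**
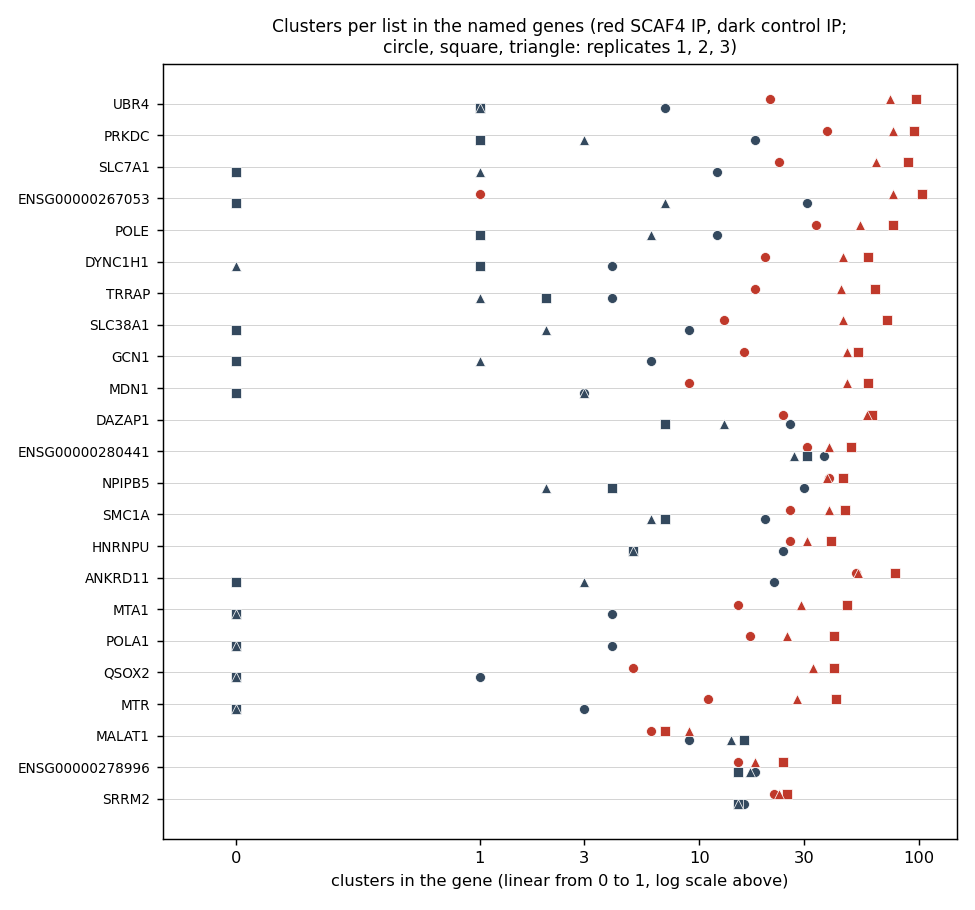
Clusters per gene (horizontal axis, linear from 0 to 1 and log above) in each SCAF4 IP list (red) and control IP list (dark), with circles, squares and triangles for replicates 1, 2 and 3. In UBR4 the SCAF4 lists held 21, 97 and 74 clusters and the control lists 7, 1 and 1, whereas in SRRM2 they held 22, 25 and 23 against 16, 15 and 15.

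MALAT1 and ENSG00000278996 gave about as many clusters in the control as with SCAF4, or more, in spite of the shorter control lists. MALAT1, a nuclear noncoding RNA of nuclear speckles, had 6, 7 and 9 clusters with SCAF4 and 9, 16 and 14 in the control, which overlapped only at 9. SRRM2, a speckle and spliceosome protein, had 22, 25 and 23 against 16, 15 and 15, fewer in each control list. ENSG00000278996, also among the chromosome 21 ribosomal DNA copies, had 15, 24 and 18 against 18, 15 and 17. By contrast NEAT1, the noncoding RNA of paraspeckles, had 40, 40 and 35 clusters with SCAF4 against 19, 1 and 1. In NEAT1, 16 regions lacked control clusters and 13 were common.

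Relative to list length, a limma fit on log2(clusters per 1000 clusters of the list + 0.5) called 55 of 3405 genes higher in the control (1.62% of those tested) and 753 higher with SCAF4 (22.1%). Among the largest differences toward the control were those in MALAT1 (log2 difference -2.65, SE 0.65, limma adjusted p = 0.0198), ENSG00000280441 (-2.57, SE 0.49, adjusted p = 0.0145), ENSG00000278996 (-2.39, SE 0.53, adjusted p = 0.0152) and SRRM2 (-2.10, SE 0.55, adjusted p = 0.0242). The largest toward SCAF4 were in DYNC1H1 (1.13), MTA1 (1.13), POLA1 (1.08), QSOX2 (1.07) and MTR (1.05). Without replicate 2, and likewise without replicate 3, limma called 0 genes, with 813 and 788 at an unadjusted p under 0.05, and without replicate 1 it called 2251. On simulated lists of the same lengths the fit also called genes that had not been changed, all of them toward SCAF4. A quasi-Poisson fit, chosen after that was seen, called 0 of the 3405 genes after adjustment, with 335 at an unadjusted p under 0.05, and it recovered none of the changes planted in simulated lists with extra spread between replicates. The gene calls are therefore given as a description, and nothing below rests on them.

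SCAF4 clusters lay over splice sites more often than control clusters. The shares spanning at least 1 splice site were 28.0%, 31.6% and 32.9% with SCAF4 against 22.0%, 12.1% and 19.9% in the control. The means were 30.8% ± 2.53 and 18% ± 5.23 (SD, n = 3 lists each), and the groups did not overlap (exact permutation test, two-sided p = 0.1, smallest possible 0.1). In the inputs the share ran from 12.8% to 13.6% in the SCAF4 line and from 8.82% to 12.6% in the parental line, below all SCAF4 IPs and around the lowest control IP. Among the 1621 highest-scoring clusters of each list the means were 41.5% and 19.2%, and the groups again did not overlap. Median cluster lengths, which can affect such a share, were 151, 146 and 144 nt against 153, 130 and 125 nt in the full lists and overlapped. Among the 1621 highest-scoring clusters the median lengths averaged 177 nt against 149 nt and overlapped as well. That setting therefore did not hold length equal.

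The kind of splice site differed as well. With SCAF4, 12.4%, 13.7% and 14.2% of clusters spanned a 5′ splice site without a 3′ one, against 7.99%, 5.62% and 5.92% in the control. The shares spanning a 3′ site without a 5′ one were 9.90%, 9.22% and 10.4% against 9.84%, 5.19% and 11.4%, which overlapped. Their ratio, 3′ over 5′, was therefore 0.80, 0.67 and 0.73 with SCAF4 and 1.23, 0.92 and 1.93 in the control. In the inputs it ran from 0.71 to 0.84, closer to the SCAF4 lists.

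Splice-site overlap did not mark the regions without control clusters. Among merged regions, 43.1% of those without and 43.8% of the common ones spanned a splice site. The former more often spanned a 5′ site alone (16.5% against 11.6%), and the common ones more often spanned both kinds (21.2% against 16.1%). The median common region covered 236 nt, and the median region without control clusters 180 nt. A longer region meets a splice site more easily, so the similar shares do not compare regions of equal length.

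Coding exons held more of the SCAF4 clusters and noncoding RNA genes more of the control clusters. Coding exons took 48.9%, 42.7% and 46.9% against 39.4%, 42.1% and 37.2%, with both replicates 2 close together. Among the better-scoring 50% of each list's clusters the coding exon shares overlapped, with means of 45.5% and 41%. Among the 1621 highest-scoring clusters of each list they did not, with means of 51.3% and 39.0%. Protein-coding genes took 90.1%, 89.6% and 89.7% against 86.3%, 76.5% and 76.5%. Small noncoding RNA genes took 0.606%, 0.274% and 0.353% against 1.28%, 3.50% and 3.95%, and genes of 1 exon 5.03%, 3.46% and 3.64% against 6.55%, 14.8% and 11.2%. The long noncoding RNA genes took 3.64%, 3.76% and 3.75% against 4.62%, 7.39% and 9.75%. In the full lists none of these groups overlapped, each with an exact permutation p of 0.1 and a Benjamini-Hochberg value of 0.161 over the 29 features compared. Among the 1621 highest-scoring clusters of each list the shares in small noncoding RNA genes (means of 0.555% and 2.34%) and in genes of 1 exon (6.11% and 10.1%) overlapped. Among the better-scoring 50% neither did, with means of 0.183% and 1.36% and of 3.18% and 7.68%. In all, 18 of the 29 features did not overlap between the groups, and list length itself was among them.

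**Figure D3:**
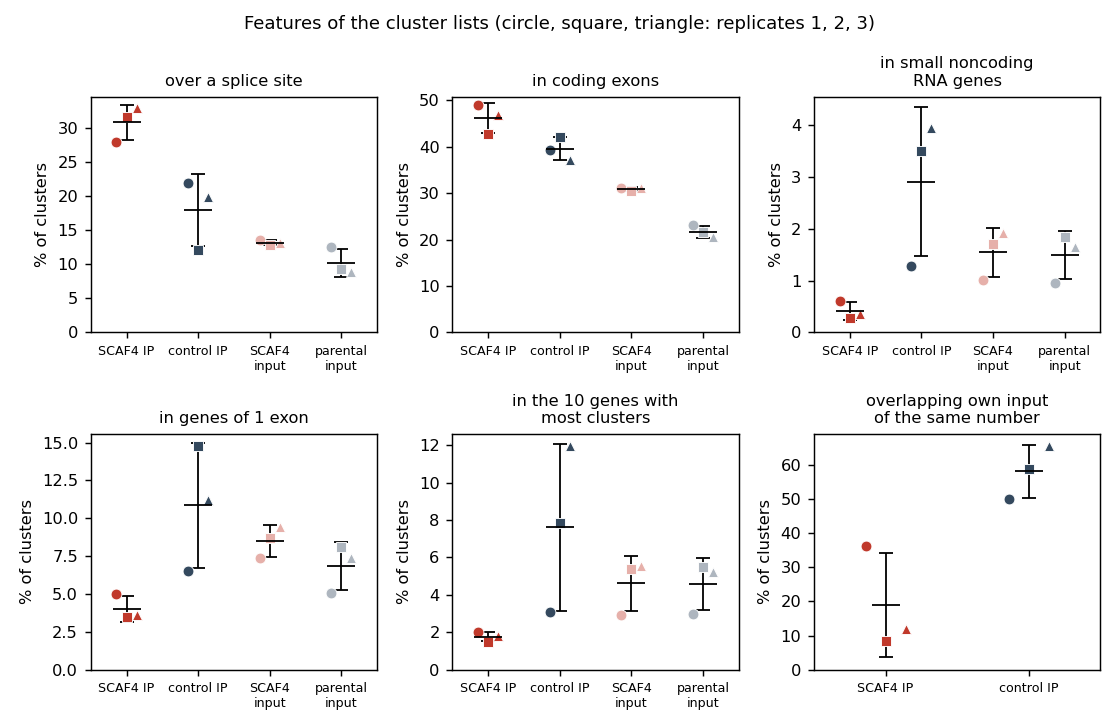
Share of clusters (vertical axes, %) with each feature in the 3 SCAF4 IP, 3 control IP and, where shown, 3 SCAF4 input and 3 parental input lists, with the mean and SD as bars and circles, squares and triangles for replicates 1, 2 and 3. Clusters over a splice site made up 28.0% to 32.9% of the SCAF4 lists and 12.1% to 22.0% of the control lists.

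The 10 genes with most clusters took more of each control list than of any SCAF4 list. Their shares were 2.03%, 1.5% and 1.8% of the SCAF4 lists against 3.06%, 7.82% and 12.0% of the control lists. Control lists also overlapped their own input more. Of the control clusters, 49.8%, 58.9% and 65.5% overlapped the parental input of the same number, and of the SCAF4 clusters 36.4%, 8.44% and 11.9% overlapped the SCAF4 input. In neither measure did the groups overlap. The input share stayed apart among the 1621 highest-scoring clusters (means of 31.7% and 60.9%), where the share of the 10 genes did overlap.

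Introns and 3′ UTRs did not separate the full lists. The 3′ UTRs took 12.8%, 10.2% and 8.75% of SCAF4 clusters against 18.4%, 16.1% and 7.77%, and the introns after the first took 19.4%, 25.1% and 23.4% against 22.0%, 14.4% and 27.0%. By region class, however, 15.8% of the common regions and 7.32% of those without control clusters lay in 3′ UTRs. First introns held 8.90% of the regions without control clusters and 5.68% of the common ones.

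Along the spliced transcript, SCAF4 clusters lay toward the 5′ end. The median position of exonic clusters, from 0 at the start to 1 at the end, was 0.317, 0.323 and 0.319 with SCAF4 against 0.389, 0.392 and 0.344 in the control. These values did not overlap (exact permutation p = 0.1), and in the inputs of the SCAF4 line they were 0.424, 0.422 and 0.427. Among the 1621 highest-scoring clusters the means drew together, to 0.388 and 0.399, and the groups overlapped. For the merged regions the medians were 0.297 without and 0.353 with control clusters, and the final 10% of the gene body held 12.8% of the former and 20.1% of the latter.

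**Figure D4:**
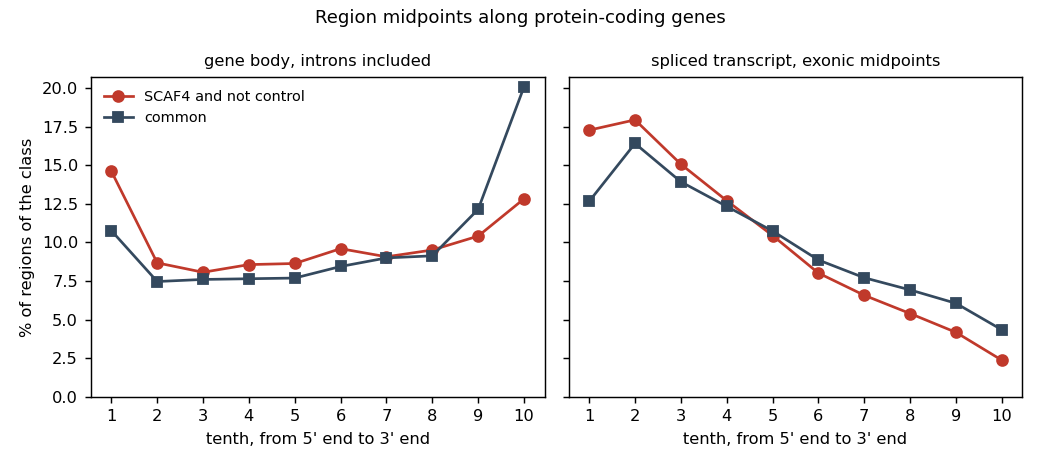
Share of regions (vertical axis, %) in 10 equal parts of protein-coding genes from the 5′ to the 3′ end (horizontal axes), along the whole gene on the left and along the spliced transcript on the right, for regions found with SCAF4 and not control (red) and common regions (dark). On the left the part at the 3′ end holds 12.8% of the former and 20.1% of the latter, and on the right both classes decline from part 2 on.

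Base composition separated the lists little. The mean GC share of clusters was 49.3%, 49.6% and 50.1% with SCAF4 and 49.2%, 50.8% and 49.8% in the control. CAG with C or G on either side, read on the transcribed strand only and allowed to overlap itself, stood within 100 nt around the midpoint in 41.7%, 44.4% and 44.7% of SCAF4 clusters against 39.8%, 40.5% and 40.1% of control clusters. The groups did not overlap, and in inputs of the SCAF4 line the shares were 35%, 37.7% and 39.1%. Among the 1621 highest-scoring clusters the means were 40.7% and 39.7% and the groups overlapped. The shares with CGG or CGA (69.1%, 67.1% and 69.7% against 66.6%, 75.2% and 70.9%) and with CTCC or CACC (49.2%, 49.4% and 49.3% against 48.4%, 50.6% and 45.7%) overlapped in the full lists.

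Within the SCAF4 lists, clusters with and without a control cluster of the same number were compared directly. Those with one were longer, with medians of 173, 215 and 209 nt against 143, 145 and 143 nt. A longer cluster meets a control cluster more easily, so the split itself favours length and with it splice-site overlap. They lay more often in small noncoding RNA genes (1.53%, 3.48% and 4.07% against 0.113%, 0.142% and 0.185%) and in genes of 1 exon (7.4%, 14.1% and 10.8% against 3.77%, 3.02% and 3.31%). They also spanned splice sites somewhat more often, in 29.4%, 36.3% and 38.9% against 27.3%, 31.4% and 32.6%. Each of these differences had 1 sign in all 3 pairs (exact sign-flip permutation p = 0.25, the smallest possible). Both sets had higher splice-site shares than the control list of the same number (22.0%, 12.1% and 19.9%).

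Input lists and FLAG-SCAF8 lists, which the classes did not use, were set over the same regions. Common regions were longer (median 236 nt against 180 nt), and a longer region meets any list more easily, so length bears on these shares. Of the regions without control clusters, 74.2% (16120) overlapped none of the 6 input lists of the FLAG-SCAF4 and parental lines and 10.8% overlapped at least 2. Of the common regions, 21.8% (1681) overlapped none and 60.0% at least 2. At least 2 of the 3 SCAF8 IP lists held a cluster in 39.1% (8505) of the former and in 87.0% (6704) of the latter, and no SCAF8 list did in 30.2% (6570) and 3.08% (237). The largest SCAF4 genes varied in this. In UBR4, 21 of 60 regions without control clusters were in at least 2 SCAF8 lists, in SLC38A1 3 of 36, and in ENSG00000267053 all 39.

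**Figure D5:**
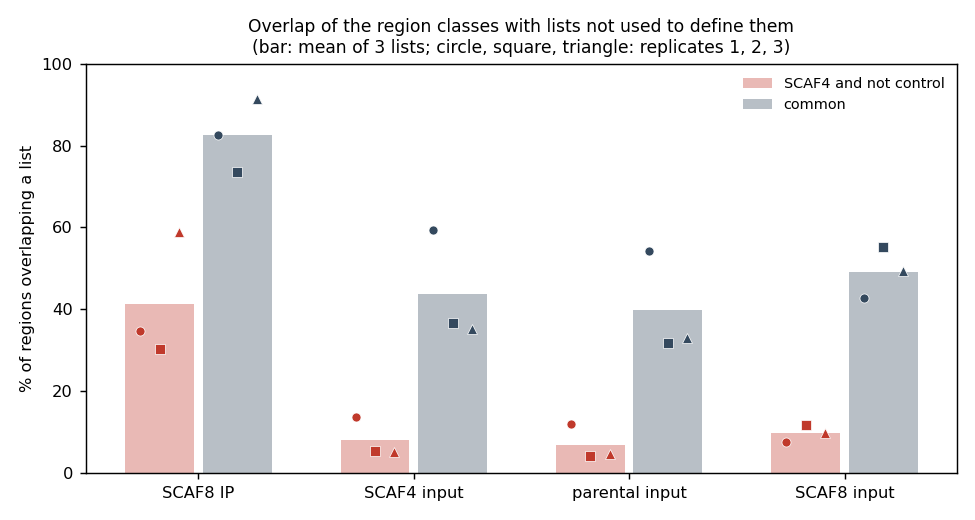
Share of regions (vertical axis, %) found with SCAF4 and not control (red) and of common regions (dark) that overlapped each FLAG-SCAF8 IP and input list, with bars for the mean of 3 lists and circles, squares and triangles for replicates 1, 2 and 3. In each of the 12 lists the common regions overlapped more often.

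By gene group, the share of regions without control clusters was set beside that of all genes. Over all genes, 74.0% of the regions of both classes in genes (21166 and 7439) lacked control clusters. Among the genes for giant cytoskeletal proteins and PI3K-related kinases the share was 82.7% (367 and 77). This gene list also held the ubiquitin ligase genes UBR4 and HUWE1. UBR4 (60 and 8) and PRKDC (49 and 19), which led the ranking by regions without control clusters, were in it. Its values therefore partly repeat that ranking. Clusters per 1000, summed over these genes, were 11.7, 12.8 and 15 with SCAF4 against 8.09, 3.89 and 8.02 in the control, without overlap. HUWE1, a giant ubiquitin ligase, had 31 regions without control clusters and 12 common ones. Among 20 DNA repair genes the share was 75.9% (104 and 33), led by FANCA of the Fanconi anaemia core complex with 21 and 12, while FANCD2 had 7 of each.

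Genes for RNA polymerase II, its elongation factors and the cleavage and polyadenylation machinery stood near the value of all genes. For polymerase and elongation genes it was 76.0% (136 and 43), with 15 regions without control clusters and 3 common ones in POLR2A, the largest subunit, and 6 and 5 in SSRP1 of the FACT complex. For cleavage and polyadenylation genes it was 69.6% (55 and 24), led by CPSF7 (8 and 4) and CPSF6 (7 and 4) of cleavage factor Im. Summed clusters per 1000 overlapped between the groups for the cleavage and polyadenylation genes. They did not for the polymerase and elongation genes, with 5.69, 5.68 and 5.62 for SCAF4 against 4.46, 4.75 and 5.55 for the control. These control values rest on 43, 11 and 9 clusters, too few to read the gap between 5.55 and 5.62 as a difference. The 6 genes for CTD-interacting domain proteins had 74.6% (44 and 15), and RPRD1B had 6 of each.

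SCAF4 and SCAF8 transcripts held clusters themselves. Per 1000 clusters of the list, the values of both groups overlapped in each of these genes. SCAF4 had 16, 25 and 24 clusters against 4, 1 and 1, and 18 regions without control clusters that touched 17 of its 20 exons, 15 of them in coding exons. RNA of the FLAG-SCAF4 transgene shares this coding sequence, and the SCAF4 input lists held 17, 16 and 17 clusters in the gene against 7, 2 and 1 in the parental inputs, so within coding exons transgene and endogenous RNA cannot be told apart. Of the 18 regions, 13 spanned a splice site and 2 were intronic. SCAF8 had 8, 22 and 17 clusters against 4, 0 and 1, with 10 regions without control clusters and 4 common ones.

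Genes for splicing factors lay below the value of all genes. For SR and hnRNP proteins, which bind pre-mRNA and guide splicing, 57.7% of regions (239 and 175) lacked control clusters, and all 32 genes had a control cluster. Summed clusters per 1000 were 16.1, 11.5 and 13.8 with SCAF4 against 21.9, 25.9 and 37.0 in the control. HNRNPUL1 (23 and 4) and HNRNPC (19 and 4) had mostly regions without control clusters, and HNRNPA2B1 had 17 and 14. For the spliceosome core the share was 67.3% (210 and 102), with 22 and 12 in SF3B3 of the U2 complex, 19 and 4 in the helicase gene SNRNP200 and 14 and 13 in PRPF8, the centre of the catalytic core.

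Translation genes also lay below the value of all genes. Cytoplasmic ribosomal protein genes had 52.8% (205 and 183), with 16.3, 11 and 12.5 clusters per 1000 against 21.4, 34.1 and 27.1. RPS24 (11 and 3) and RPS19 (10 and 5) led the regions without control clusters, and RPL3 (4 and 7) and RPL11 (5 and 6) the common ones. Translation factors had 59.6% (218 and 148) and ranged widely. EIF3D had 17 and 1, EIF3B 17 and 10, EEF1D 13 and 10, and EEF2, the elongation factor that moves the ribosome, 1 and 13. Clusters in EEF2 numbered 14, 22 and 12 with SCAF4 and 15, 5 and 7 in the control.

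Chaperones (52.6%, 80 and 72) and glycolytic enzymes (47.1%, 40 and 45) lay lower. The chaperone HSP90AA1 had 1 region without control clusters and 10 common ones, whereas HSPD1 had 10 and 3 and CCT5 8 and 9. In glycolysis GPI had 4 and 12, ENO1 5 and 10, and PFKP 7 and 3. Actin and tubulin genes had 25.8% (8 and 23). ACTG1 had 0 and 5 from 5, 5 and 6 SCAF4 clusters against 6, 5 and 3, ACTB had 1 and 4, TUBA1B 2 and 3, and TUBG1 2 and 0.

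Histone genes and small noncoding RNA genes were low as well. The replication-dependent histones, whose mRNAs lack introns and poly(A) tails, had 30.6% (22 and 50), and their clusters per 1000 were 3.42, 1.78 and 2.30 with SCAF4 against 4.98, 16.9 and 13.6. H4C14 had 7 and 9 and H4C15 6 and 4, a pair of near-identical genes whose reads may be shared. Both are annotated over about 7.1 kb, and the isoform used has 396 nt of exon. In neither gene did a region without control clusters touch that exon, so these regions do not describe the histone mRNA. Small nuclear and nucleolar RNA genes had 17.4% (8 and 38), with 2.37, 0.974 and 1.24 per 1000 against 4.57, 8.64 and 8.64. Among them ENSG00000281010 had 1 of each kind, and RNVU1-19 had 1 without a control cluster. The list of abundant nuclear noncoding RNAs had 50.0% (46 and 46), including TUG1 with 6 and 8 and FTX with 16 and 3. RN7SK, which holds the elongation factor P-TEFb inactive, had 1 common region with 1 cluster in each of the 6 lists. The 18 lists as deposited held 0 clusters on the mitochondrial chromosome, and whether they were removed beforehand is not given in the sources used here.

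The genes the study named for early polyadenylation sites were few and most were sparsely covered. The study chose them, so they are not independent evidence of a direction. All 10 had clusters in at least 2 SCAF4 lists, 4 of them without a control cluster (52.2% of all genes with at least 2 SCAF4 lists had none), and 78.1% of their regions (25 and 7) lacked control clusters. HP1BP3 had 9, 19 and 9 SCAF4 clusters against 3, 1 and 0, and DNAJB6 4, 9 and 8 against 0, 0 and 1. AKAP13 had 2, 6 and 6 against 1, 0 and 0. DNAJC12 (1, 2 and 1), BCL11A (2, 2 and 1) and CNTLN (0, 4 and 3) were among those with no control clusters. COX10 had 1, 3 and 3 against 0, 0 and 1, USP15 1, 3 and 3 against 1, 0 and 0, and ZC3HAV1 1, 1 and 0 against 1, 0 and 0. With so few clusters, absence from the control and a short control list cannot be told apart for them.

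Genes with more exons held more regions without control clusters in total, though fewer per exon, from 13 per 10 exons in genes of 1 exon to 1.28 in those of 41 or more. Over 7003 protein-coding genes with at least 2 SCAF4 lists, Spearman's rho between exon number and regions was 0.26 without and 0.05 with control clusters, as a description across genes, which share libraries and expression. Genes of 1 exon held on average 1.30 regions without and 0.877 with control clusters, genes of 11 to 20 exons 3.18 and 1.06, and those of 41 or more exons 7.43 and 1.80. Per 10 kb of exon sequence the regions without control clusters rose from 4.92 to 6.62 between the first and the last of these groups, and the common ones fell from 3.31 to 1.60.

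Regions found in the control and not with SCAF4 were too few to describe as a group. Of the 14, 6 lay in introns after the first, 3 in 3′ UTRs and 0 in coding exons, and none spanned a splice site. ANKRD30BL held 2 of them and had 2, 2 and 2 SCAF4 clusters elsewhere against 5, 4 and 1 in the control. CROCC, CLPTM1L, FUT1 and ATP6AP2 held 1 each.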

How the data were processed

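PAR-CLIP libraries of soluble and chromatin fractions were deposited as 1 cluster list per line, IP or input, and replicate number. Per the submitters' processing notes, the tools were bcl2fastq 1.8, Trim Galore, cutadapt, Bowtie2 2.2.9 and Picard, on GRCh38, and the authors called clusters with PARalyzer. Replicate 1 had longer reads than the others. The lists precede the authors' filters against input and control. The deposited score of each cluster has no stated meaning and served only to rank clusters. Reads were not used here, so the depth is unknown.

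Clusters were assigned by midpoint to GENCODE 44 (1 isoform per gene, 2000 nt flanks) and lists were compared by exact permutation tests in Python 3.11.15 with SciPy 1.17.1. A midpoint within a gene but outside the chosen isoform was counted with the introns after the first. Genes with at least 10 clusters were fitted with limma 3.58.1 in R 4.3.3, both fits having been tested on simulated data. Replicates were samples labelled as such, and p-values measure only the spread between them. The genes named were those with most regions of each class overall and in each gene list, the largest limma differences, SCAF4, SCAF8 and the early polyadenylation genes, and some genes this rule selects are not reported here. Members, gene lists and tests were chosen with earlier results of these data known. The list of mitochondrially encoded genes matched 0 genes, since the chromosomes of the lists alone were annotated and the deposited lists leave that one out. Alternatives covered list length, score, presence rules, inputs, the replicate block, left-out replicates and fit settings.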

Additional observations from a re-analysis of the deposited data

How the results depend on the processing

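The class counts depended on list length and on the rule for presence. Regions found with SCAF4 and not control numbered 21734, against 6604 with all 3 SCAF4 lists required, 9417 at or above the median score and 342 with equal list sizes, and 7299 to 26821 with a replicate or control replicate 1 left out. Common regions (7706) numbered 2371 at the median score, 226 with equal sizes, 2121 with at least 2 control lists, 3085 with the input filter and 2534 to 6144 with a list left out. Regions of the control alone (14) numbered 118, 635 (equal sizes), 6 (input filter) and 0 to 16. Genes without control clusters (4225) numbered 2117 with all 3 SCAF4 lists, 333 with equal sizes, 6661 with at least 2 control lists and 2276 to 6493 with a list left out, and common genes (3876) 2406 at the median score, 520, 1440 and 1575 to 3526. The share of control clusters in SCAF4 lists was 47.0% at the median score and 11.5% with equal sizes. Of the 29 list features 10 were apart with equal sizes. These included the share antisense to a gene, which overlapped in the full lists. They also included clusters per gene with a cluster, whose difference turned from 2.26 to -0.205. With equal sizes the 5′ UTR difference turned to -0.103 percentage points and that of HSP90AA1 to 0.0066 (log2). The cause was not tested.

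With the replicate block (presence counted by paired numbers), 2014 regions were common, 26 were of the control alone, and 6514 and 1409 genes lacked or had control clusters. Same-numbered lists did not deviate together (correlations of 0.02, -0.07 and 0.15), so the numbers were not taken to pair them. limma called 808 genes, 896 with the block, 1525 and 325 with at least 5 and 20 clusters, 17 of 132 with equal sizes, 202 without a trend and 0 to 2251 with a replicate left out. The added quasi-Poisson fit called 0 (also with at least 5 clusters, the block or a replicate left out), 57 with at least 20 clusters and 15 with equal sizes.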
